A study of Homo sapiens with 18 samples.

Results

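The comparison described here sets the 3 RNA sequencing libraries labelled H929 gN1E against the 3 labelled LP1 gN1E. These are human multiple myeloma cell lines in the state in which the long noncoding RNA NEAT1 was high. The libraries were chosen by the line and the gapmeR named in their titles, with no measured value, and make up 6 of the 18 libraries of the series. The other 12 carry the labels AMO1 gN1E, AMO1 SCR, H929 SCR and LP1 SCR, with 3 libraries each, and are used here only beside these 6.

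The study asked which RNAs NEAT1 acts on in myeloma through shared microRNAs, and lowered NEAT1 with a gapmeR, an antisense oligonucleotide that directs RNase H to its target. AMO1, NCI-H929 and LP1 are established myeloma lines bought from a cell bank. By the labels every library comes from cells exposed for 48 h by gymnosis, which is uptake without a transfection reagent, either to gN1E directed at NEAT1 or to a scrambled control, SCR. The design text of the record gives days in place of hours, and the hours of the treatment protocol are used here. Total RNA was made into stranded libraries and read in pairs. The labels do not say whether the 3 replicates of a group were separate cultures, so the p-values below measure only the spread between these samples, and 3 libraries of a line stand for that line's culture and not for patients.

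The counts over all genes were 56022788, 52856172 and 59302536 in the libraries labelled H929 gN1E A, B and C. They were 57247024, 45406587 and 44091209 in those labelled LP1 gN1E A, B and D. Of 62703 annotated genes, 24616 reached 10 reads in 1 or more of the 6 libraries and were tested. Levels are given as CPM, the counts of a gene relative to the library total, scaled between libraries by the TMM method, in the order A, B, C for the libraries labelled H929 and A, B, D for those labelled LP1. Where no gapmeR is named, the libraries labelled H929 or LP1 are the gN1E ones, and log2 fold changes are H929 label minus LP1 label.

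Plasma cells make antibody, and a myeloma is a clone of them, so its cells share a rearranged heavy chain and a rearranged light chain. The class of heavy chain, the choice of kappa or lambda, and the V segment that was joined are therefore marks of identity of a line. Myeloma lines are also told apart by translocations that bring an oncogene under the control of the heavy chain locus, among them FGFR3 with NSD2, the cyclin D genes and the MAF genes. NCI-H929 is known as an IgA kappa line and LP1 as an IgG lambda line, both with the translocation to FGFR3 and NSD2, and AMO1 is known as an IgA kappa line.

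NEAT1, the RNA scaffold of nuclear paraspeckles, stood at 554, 464 and 542 CPM in the libraries labelled H929 and at 655, 667 and 828 CPM in those labelled LP1. In the SCR libraries it stood at 77.2 ± 3.91 CPM (SD, n = 3) under the H929 label and at 166 ± 27.8 CPM (SD, n = 3) under the LP1 label. NEAT1 was thus higher in the libraries labelled with the gapmeR against it, which goes against the gapmeR label, and the groups are called by their labels only. Between the lines, the groups did not overlap, as at 72.1% of all genes tested. NEAT1 was lower under the H929 label, at a log2 fold change of -0.48 (adjusted p 0.012, quasi-likelihood test of edgeR, Benjamini-Hochberg). That call was lost when only library size was used for scaling, at -0.33 and an adjusted p of 0.111, within a range of 2.03e-13 to 0.111 over 14 alternatives. MALAT1, its neighbour on chromosome 11, stood at 4180, 3570 and 3310 CPM under the H929 label and 4970, 4950 and 4690 CPM under the LP1 label.

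The line names are in doubt as well. The count tables titled H929 gN1E were deposited under the name LP1 SCR, and those titled LP1 gN1E under the name H929 SCR. The replicate letters follow the table names rather than the titles, since the table of the library titled H929 gN1E C carries the letter D and that of the library titled LP1 gN1E D carries the letter C. The sections on immunoglobulin and on oncogenes set each group beside what is known of the lines.

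The lines differed at most genes. By the quasi-likelihood test of edgeR (Benjamini-Hochberg), 17135 of 24616 genes had an adjusted p under 0.05, which is 69.6% of those tested, 8622 higher under the H929 label and 8513 higher under the LP1 label. With a change of at least 2-fold as well, 8930 genes or 36.3% were called, and list members are counted by this rule below. Of these, 4631 (18.8% of genes tested) were higher under the H929 label and 4299 (17.5%) under the LP1 label. The count of each list below is to be read beside these shares. The levels of the groups did not overlap at 17743 genes, 72.1% of those tested. The fitted difference reached 32-fold at 969 genes in favour of the H929 label and at 782 in favour of the LP1 label. With groups at 0 set to a floor of 3 counts, 602 and 563 remained, and the 2-fold counts did not change. The median log2 fold change over all genes tested was 0.03.

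The same contrast in the SCR libraries, which share no library with the 6, called 9363 of 24978 genes, or 37.5%, at 2-fold. Of those calls, 7602 were also made in the gN1E libraries with the same direction, which is 85.1% of the gN1E calls and 81.2% of the SCR calls, and 3 were made with the opposite direction. Across the 23842 genes tested in both, the log2 fold changes had a Pearson r of 0.966 and a Spearman rho of 0.941, as a description over genes, which are not independent replicates. A test of whether the line contrast itself differed between the gapmeR labels called 280 of 25752 genes, or 1.09%.

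**Figure D1:**
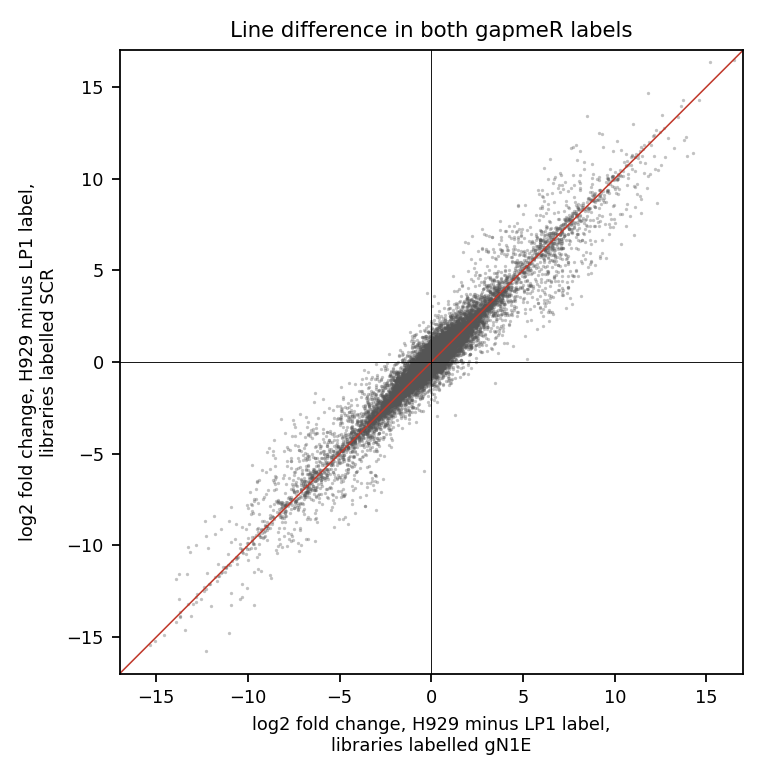
Log2 fold change, H929 label minus LP1 label, in the gN1E libraries (x axis) against the same in the SCR libraries (y axis), with 1 point for each of 23842 genes. The red line marks equal values, and the points follow it with a Pearson r of 0.966.

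The libraries labelled H929 stood far closer to AMO1 than to those labelled LP1. Over 15432 genes, the Pearson r of log2 CPM between single libraries ran from 0.959 to 0.964 for the H929 label with AMO1 gN1E, from 0.823 to 0.829 for the H929 label with the LP1 label, and from 0.776 to 0.785 for the LP1 label with AMO1 gN1E. Within the groups it was 0.997 to 0.998. The contrast of AMO1 gN1E with the libraries labelled H929 called 2059 of 23226 genes at 2-fold, or 8.87%, and that with the libraries labelled LP1 called 9291 of 23807, or 39.0%. These contrasts share libraries with each other and with the comparison of the lines, so their counts are only set side by side.

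Immunoglobulin showed the sharpest split. The libraries labelled H929 made IgA heavy chain and kappa light chain RNA, together with IgG and lambda V segment RNA. The libraries labelled LP1 made kappa light chain RNA with almost no heavy chain RNA of any class. Of 8 heavy chain constant genes tested, 7 were called higher under the H929 label and 1, IGHE, higher under the LP1 label. The median log2 fold change was 10.27, against 0.03 over all genes tested. Among the 7 was IGHD, with 20 reads in all under the H929 label and 0 under the LP1 label. IGHD passed the filter only through the H929 label, so its direction was fixed by the filter. In the SCR libraries 6 and 1 were called.

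IGHA1, the constant gene of IgA1, stood at 9810, 9380 and 9570 CPM under the H929 label and at 7.82, 7.29 and 9.53 CPM under the LP1 label. That is a 1160-fold difference (log2 10.18, SE 0.097), with an adjusted p of 7.87e-28 by the quasi-likelihood test of edgeR (Benjamini-Hochberg). AMO1 gN1E had a mean of 7480 CPM, so the low group is the one labelled LP1. IGHG1, the constant gene of IgG1, stood at 734, 781 and 740 CPM under the H929 label and at 0.204, 0.121 and 0.167 CPM under the LP1 label, a 4380-fold difference. Here AMO1 gN1E, with a mean of 1.38 CPM, stood with the low group, and the libraries labelled H929 were alone at a high level. IGHG3 and IGHG4 showed the same order, with single libraries between 101 and 113 CPM under the H929 label. IGHG2 did not, since AMO1 gN1E had a mean of 25.1 CPM beside 67.3 CPM under the H929 label and 0.0224 CPM under the LP1 label. IGHE, the constant gene of IgE, stood at 2.37, 3.26 and 3.6 CPM under the LP1 label and at 0.158, 0.243 and 0.242 CPM under the H929 label (log2 fold change -3.84). IGHM, the constant gene of IgM, was at 0 in all 6 libraries. The IgG genes resemble each other, as do IGHA1 and IGHA2, and counting may split or drop reads that map to several of them, so the share of each subclass is uncertain.

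Light chain constant genes differed little in comparison. IGKC, the kappa constant gene, stood at 9650, 9330 and 9470 CPM under the H929 label and at 6520, 7120 and 6680 CPM under the LP1 label. It was 1.39-fold higher under the H929 label with no overlap, as at 72.1% of all genes tested. IGLC2, a lambda constant gene, stood at 19.3, 16.4 and 12.7 CPM under the H929 label and 5.75, 5.3 and 6.84 CPM under the LP1 label. IGLL5, whose last exon is nearly the same as a lambda constant gene, stood at 138, 134 and 128 CPM against 192, 192 and 177 CPM. Of 5 members of the light chain and joining list tested, 1 was called higher at 2-fold under the H929 label, IGLC2, and 1 under the LP1 label, IGLC3, with a list median of -0.21. Because these lambda genes share sequence, their counts are uncertain. JCHAIN, which links IgA and IgM chains into polymers, stood at 3650, 3600 and 3660 CPM against 4400, 4250 and 3870 CPM. JCHAIN was called, at -0.21, except with library size as the only scaling, where the adjusted p was 0.28 in a range of 5.13e-05 to 0.28 over 14 alternatives.

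The V segments tell the clones apart more directly than the constant genes, since each clone joined its own. The stretches shown here come from the V exons of the segments with the most counts, and are reference germline sequence of the genome build hg38, not the rearranged and mutated genes of the lines. IGKV3-20 (minus strand, chr2:89142577-89142696) led in the libraries labelled H929 and IGKV3-15 (minus strand, chr2:89085180-89085299) in those labelled LP1, and capitals mark the bases at which these 2 differ. IGKV3D-20 (plus strand, chr2:90039357-90039476) is shown because it has no base different from IGKV3-20 in this stretch, so that this stretch alone cannot tell them apart.
IGKV3-20: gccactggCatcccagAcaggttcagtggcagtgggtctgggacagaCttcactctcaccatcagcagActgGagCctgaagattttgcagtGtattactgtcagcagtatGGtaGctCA
IGKV3-15: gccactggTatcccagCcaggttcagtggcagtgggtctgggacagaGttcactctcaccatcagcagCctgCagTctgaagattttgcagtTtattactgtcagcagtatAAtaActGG
IGKV3D-20: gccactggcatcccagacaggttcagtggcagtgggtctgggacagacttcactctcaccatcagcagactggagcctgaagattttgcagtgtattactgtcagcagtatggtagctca
Over the whole V exon, IGKV3-20 and IGKV3-15 differed at 18 of 296 aligned bases (93.9% identical), and IGKV3-20 and IGKV3D-20 at 5 of 299 (98.3%).

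By total counts, IGKV3-20 stood at 1540, 1490 and 1590 CPM under the H929 label and at 0.0175, 0.132 and 0.0227 CPM under the LP1 label. IGKV3D-20 followed it at 598, 665 and 689 CPM under the H929 label. IGKV3-15 showed the reverse, at 1650, 1640 and 1470 CPM under the LP1 label and 14.7, 0.416 and 0.388 CPM under the H929 label. The kappa V segments of the groups were thus different, with no overlap. IGKV3-15 took 99.0% of all kappa V counts under the LP1 label, and IGKV3-20 took 69.3% and IGKV3D-20 29.3% under the H929 label. AMO1 gN1E had IGKV3-20 at a mean of 1620 CPM and IGKV3D-20 at 736 CPM, 67.5% and 30.6% of its kappa V counts.

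Heavy chain V segments were read only in the libraries labelled H929, apart from traces. IGHV3-23 (minus strand, chr14:106268701-106268820) and IGHV3-30 (minus strand, chr14:106335175-106335294) are shown with capitals at the bases that differ between them, because the first was shared with AMO1 and the second was not. IGLV3-21 (plus strand, chr22:22712991-22713110) is the lambda V segment of the same libraries, shown without capitals, and these too are reference germline bases of hg38.
IGHV3-23: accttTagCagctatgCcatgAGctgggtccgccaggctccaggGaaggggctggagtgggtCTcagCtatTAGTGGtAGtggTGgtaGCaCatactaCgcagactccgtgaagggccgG
IGHV3-30: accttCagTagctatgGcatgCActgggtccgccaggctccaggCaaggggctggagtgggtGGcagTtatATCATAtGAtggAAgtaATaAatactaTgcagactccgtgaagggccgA
IGLV3-21: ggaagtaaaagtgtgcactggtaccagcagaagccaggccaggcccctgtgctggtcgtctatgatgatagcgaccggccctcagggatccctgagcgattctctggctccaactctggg
The exons of IGHV3-23 and IGHV3-30 differed at 31 of 305 aligned bases (89.8% identical).

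IGHV3-23 stood at 1260, 1840 and 1080 CPM under the H929 label, at 0 in the 3 libraries labelled LP1, and at a mean of 1990 CPM in AMO1 gN1E. IGHV3-30 stood at 240, 226 and 237 CPM under the H929 label and at 0 both under the LP1 label and in AMO1 gN1E. IGLV3-21 stood at 1180, 1210 and 1170 CPM under the H929 label, at 0 under the LP1 label and at a mean of 0.0134 CPM in AMO1 gN1E. A count of 0 over the 3 libraries labelled LP1 allows a level of up to 0.02 CPM, a bound that covers counting error only. The libraries labelled H929 thus carried the heavy and kappa V segments that lead in AMO1, and beside them a heavy and a lambda V segment that AMO1 lacked. All IGHV segments summed to a mean of 1680 CPM under the H929 label and 0.855 CPM under the LP1 label, and all IGLV segments to 1190 and 4.28 CPM. In bulk RNA, fewer cells of a type and less RNA per cell cannot be told apart, so whether the same cells made both sets of chains was not tested.

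**Figure D2:**
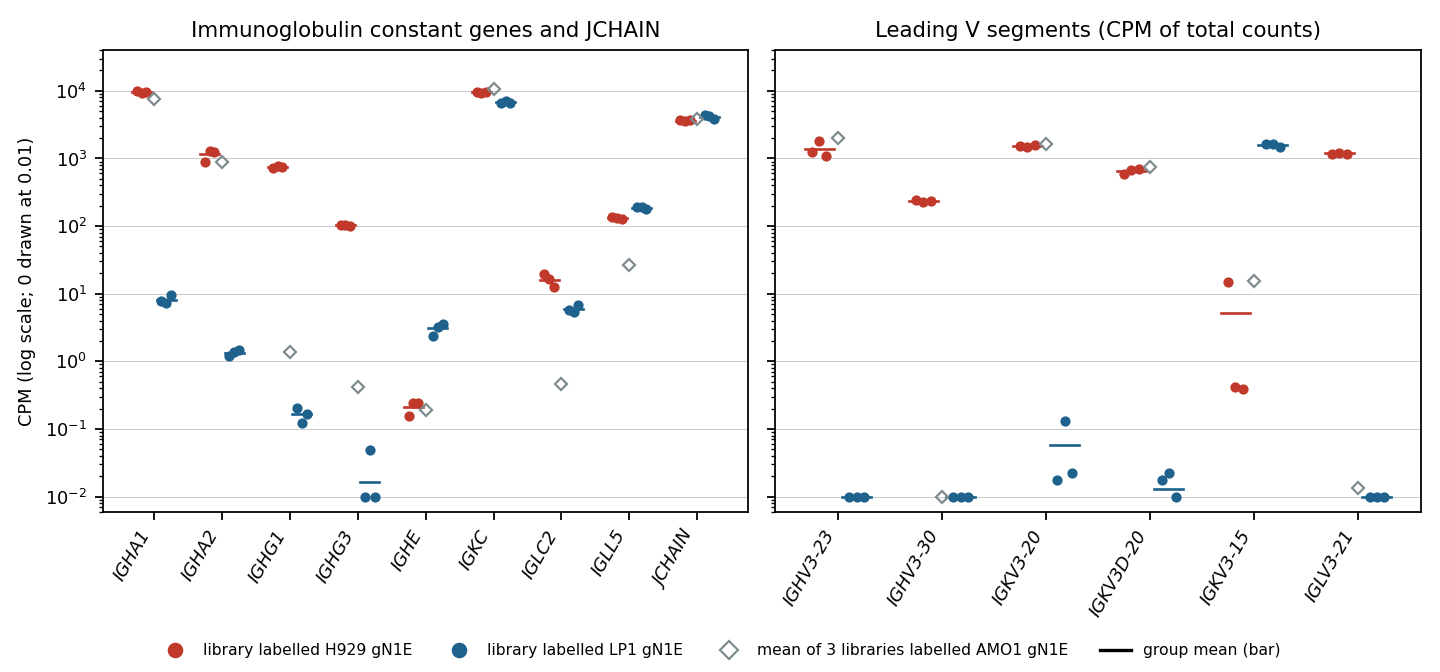
CPM on a log axis of immunoglobulin constant genes and JCHAIN (left, TMM-scaled) and of the leading V segments (right, by total counts) in each library labelled H929 gN1E (red) and LP1 gN1E (blue), with bars at group means, diamonds at the AMO1 gN1E mean, and levels of 0 or below 0.01 drawn at 0.01. IGHA1 stands at a mean of 9590 CPM under the H929 label and 8.22 CPM under the LP1 label, and IGKV3-20 and IGKV3-15 exchange places.

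Set beside what is known of the lines, neither set of names was met in full. Under the LP1 label, kappa V segments summed to a mean of 1600 CPM and lambda V segments to 4.28 CPM. These sums and IGHG1 at under 1 CPM go against an IgG lambda line, whereas IGLL5 was higher there than under the H929 label. Kappa RNA with high FGFR3 and NSD2, given below, is what is known of NCI-H929, the name the tables of these libraries carry, whereas their low IGHA1 is not. Under the H929 label, IgA and kappa RNA are those known of NCI-H929 and also of AMO1, whereas IGHG1 and IGLV3-21 are of the class and chain known of LP1, the name its tables carry. The study reports that the supplier of the lines had typed them by short tandem repeats. Which line each group of libraries holds was not tested here.

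Genes that were on in 1 group and off in the other were counted as those with at least 5 CPM in each library of the first and under 0.1 CPM in each of the second. There were 115 such genes on under the H929 label, 67 of them protein-coding, and 87 on under the LP1 label, 66 of them protein-coding. Of the 115, AMO1 gN1E had 98 on and 10 off, and of the 87 it had 0 on and 80 off. At 10 CPM and 0.1 CPM the counts fell to 63 and 53.

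Over all 18 libraries, 70 genes were on in the 6 libraries labelled LP1 and off in the other 12, against 9 for the H929 label and 1 for AMO1. The 70 included PDGFB, a growth factor subunit, at a mean of 277 CPM over the 6 libraries, the cancer testis gene MAGEA4 at 226 CPM, and WLS, which carries Wnt proteins to the cell surface, at 88.0 CPM. The 9 were IGLV3-21 at 1090 CPM, IGHV3-30 at 218 CPM, BEST3 at 34.6 CPM, LINC02817 at 33.7 CPM, PDIA2 at 9.34 CPM, RALYL at 7.58 CPM, SFRP1 at 6.58 CPM, IGHV4-31 at 6.17 CPM and FIGN at 5.97 CPM. The 1 gene of AMO1 was ABCA8 at 5.98 CPM. These genes were named after their values were seen. By the same rule, 78 genes were off only under the LP1 label, 56 only in AMO1 and 0 only under the H929 label.

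The level of shared genes can be read against AMO1. At 113 genes that were on in AMO1 gN1E and off under the LP1 label, the libraries labelled H929 stood at a median of 81.9% of the AMO1 level, with 63.9% and 102% at the quartiles. At 99 of the 113 they had at least 50% of it, and at 2 under 10%. In the SCR libraries the same share was 82.2% over 110 genes. The reverse set gave a different picture, since at 304 genes on under the LP1 label and off in AMO1 gN1E the libraries labelled H929 stood at a median of 5.76% of the LP1 label's level, with 176 under 10% and 20 at 50% or more.

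The 12 protein-coding genes with the highest level per kilobase in each direction, among those called with a fitted change of at least 32-fold and no overlap, show what such genes are. Higher under the H929 label were CD74, HLA-DRA, CCND2, HSPB1, CD70, SERPINF1, LCP1, CTAG2, PEG10, SSTR3, CXCR4 and CD4. HSPB1, a small heat shock protein, stood at 317, 281 and 303 CPM against 2.97, 4.69 and 3.67 CPM, above its AMO1 gN1E mean of 101 CPM. CD70, the ligand of CD27, stood at 213, 237 and 229 CPM against 0.982, 1.31 and 1.5 CPM. SERPINF1, a secreted factor that restrains vessel growth, stood at 299, 303 and 293 CPM against 0.0556, 0.0486 and 0 CPM. All 12 were expressed in AMO1 gN1E as well, at means between 77.4 and 2220 CPM. LCP1, an actin-bundling protein of blood cells, and PEG10, a gene derived from a retrotransposon, were 132-fold and 1920-fold higher under the H929 label, and SSTR3, a somatostatin receptor, 830-fold.

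Higher under the LP1 label were NES, MAPKAPK2, CCR1, FGFR3, IL32, SSX1, F2R, LAMP5, KCTD3, LAPTM4B, BGLAP and HMOX1. NES, which encodes the intermediate filament nestin, stood at 3410, 3640 and 3530 CPM against 51.6, 47.6 and 50 CPM under the H929 label, a 71.7-fold difference. MAPKAPK2, a kinase downstream of p38, stood at 1280, 1290 and 1270 CPM against 32.4, 34.6 and 35.6 CPM. IL32, an inflammatory cytokine, stood at 303, 372 and 355 CPM against 0.035, 0.131 and 0.0483 CPM. AMO1 gN1E stood with the H929 label at these 3 genes, at means of 40.0, 42.9 and 0.129 CPM. F2R, the thrombin receptor, was 49.1-fold higher, and HMOX1, which breaks down heme, 43.6-fold.

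**Figure D3:**
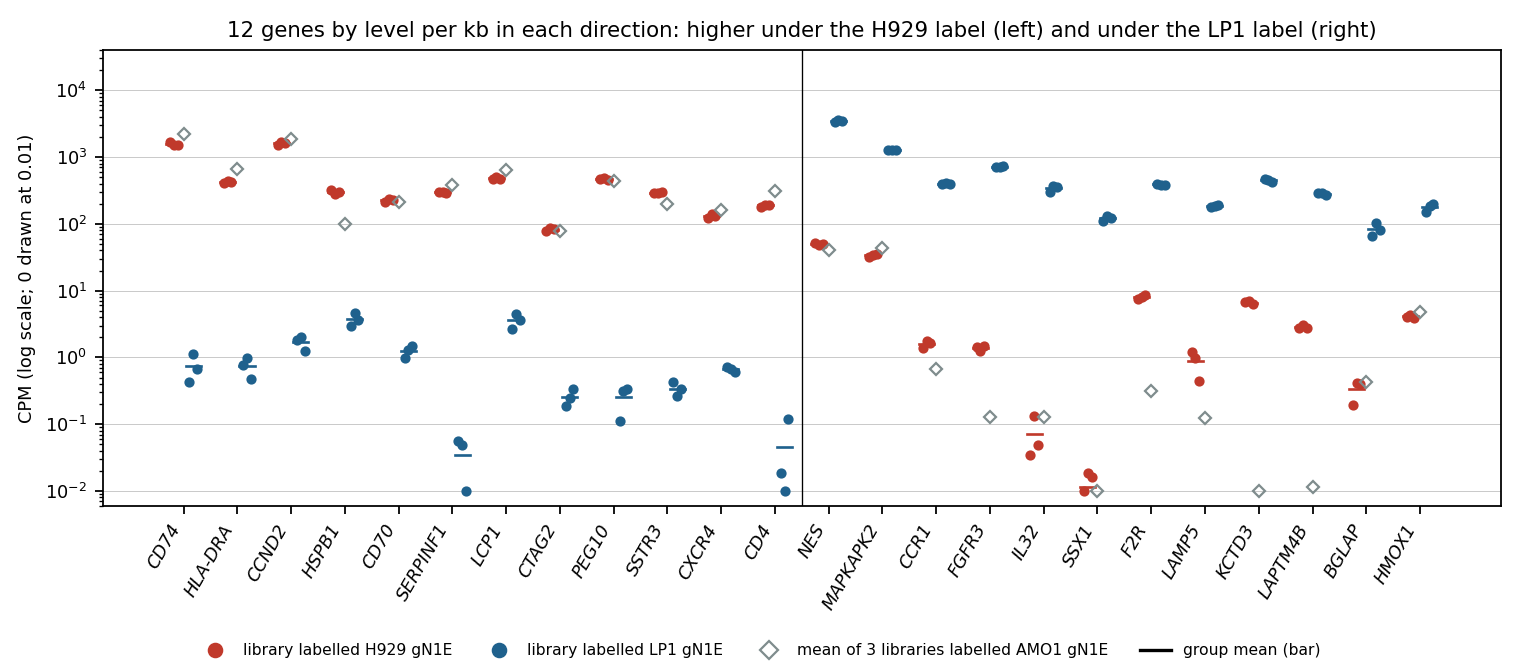
CPM on a log axis of the 12 leading protein-coding genes in each direction, in each library labelled H929 gN1E (red) and LP1 gN1E (blue), with bars at group means, diamonds at the AMO1 gN1E mean, and levels of 0 or below 0.01 drawn at 0.01. AMO1 lies near the H929 label for genes such as CCND2, with a mean of 1870 CPM, and apart from the LP1 label for genes such as FGFR3, with a mean of 0.129 CPM.

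Among translocation oncogenes, the libraries labelled LP1 expressed FGFR3 and NSD2 at a high level and those labelled H929 did not. FGFR3, a growth factor receptor on chromosome 4, stood at 722, 720 and 724 CPM under the LP1 label and at 1.44, 1.23 and 1.48 CPM under the H929 label. That is a 524-fold difference (log2 fold change -9.03, SE 0.076), with an adjusted p of 8.43e-33 by the quasi-likelihood test of edgeR (Benjamini-Hochberg). NSD2, the histone methyltransferase beside it, stood at 1630, 1660 and 1700 CPM under the LP1 label and at 252, 267 and 255 CPM under the H929 label (log2 fold change -2.70). TACC3, also on chromosome 4, was 2.19-fold higher under the LP1 label, and LETM1, between FGFR3 and NSD2, was 1.22-fold higher under the H929 label. The levels of FGFR3 under the H929 label go against what is known of both NCI-H929 and LP1, and AMO1 gN1E had a mean of 0.129 CPM.

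Cyclin D genes also differed. CCND2 stood at 1540, 1690 and 1630 CPM under the H929 label, near the AMO1 gN1E mean of 1870 CPM, and at 1.85, 2.02 and 1.24 CPM under the LP1 label. CCND1 stood at 177, 181 and 179 CPM under the LP1 label and at 25.9, 27.6 and 29.1 CPM under the H929 label. CCND2 was thus high under the H929 label and CCND1 under the LP1 label. The groups did not overlap at either, beside 13 of the 14 genes on the oncogene list and 72.1% of all genes tested. MAF, a transcription factor that acts on CCND2 and ITGB7, stood at 182, 203 and 209 CPM under the LP1 label, 28.7, 28.7 and 32.7 CPM under the H929 label, and 0.00664 CPM on average in AMO1 gN1E. MYCN stood at 5.74, 7.26 and 5.88 CPM under the H929 label, under 1 CPM under the LP1 label, and at 0 in AMO1 gN1E, so that it is among the genes that set the H929 label apart from AMO1. MYC stood at 1100, 1110 and 1060 CPM against 569, 570 and 590 CPM. Of 14 genes on the list, all tested, 2 were called higher under the H929 label and 7 under the LP1 label, with a median of -0.77.

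**Figure D4:**
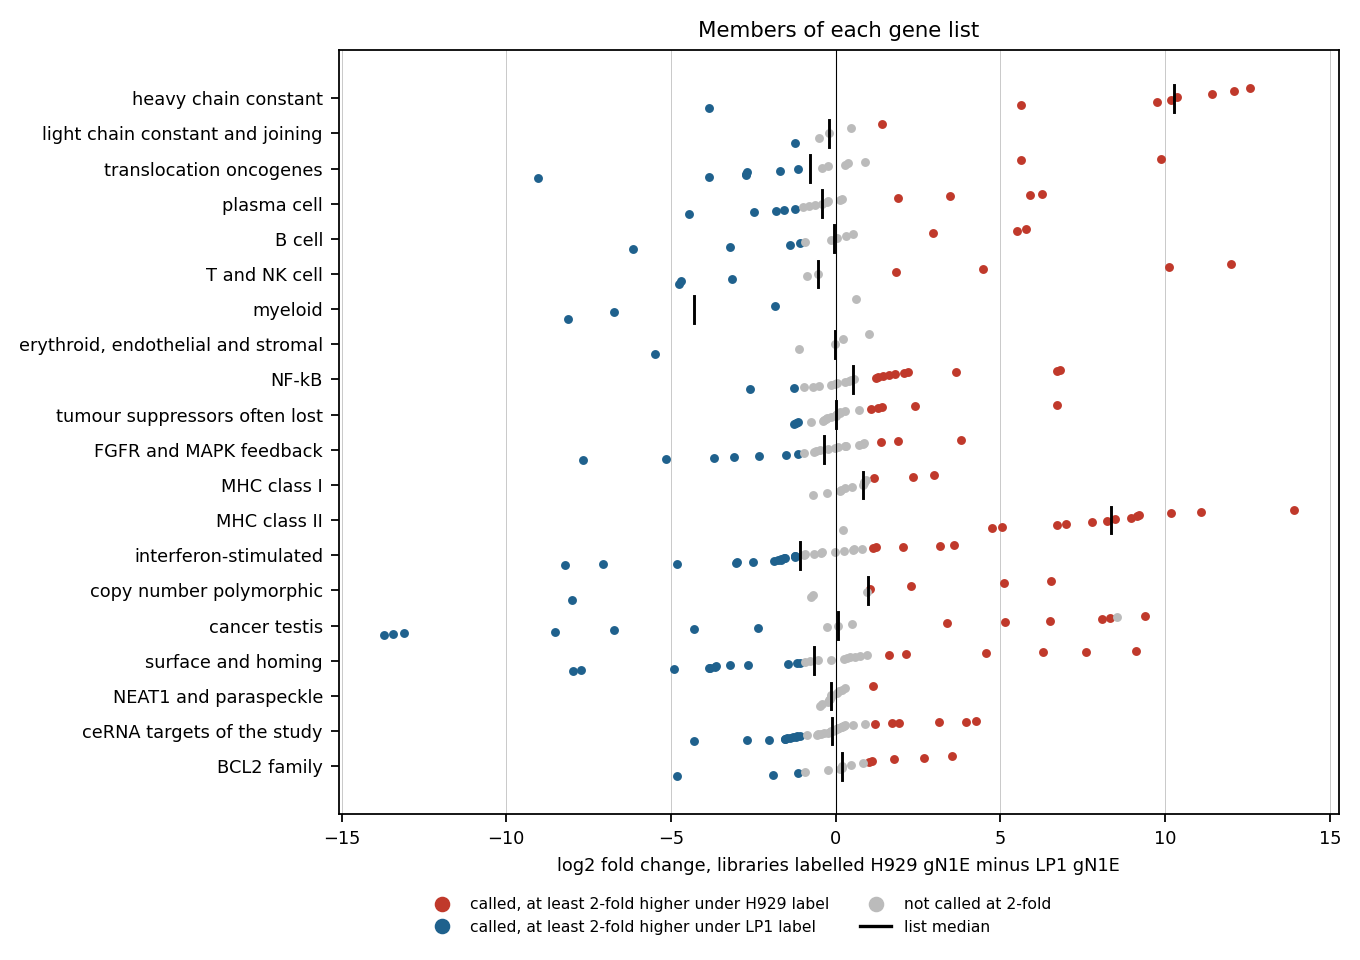
Log2 fold change of each tested member of 20 gene lists, H929 label minus LP1 label in the gN1E libraries, with black bars at list medians and colour for members called with at least 2-fold. The heavy chain constant and MHC class II lists stand apart, with medians of 10.27 and 8.35.

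Both groups expressed the program of plasma cells, with different leading members. Of 17 plasma cell genes tested, 4 were called higher under the H929 label and 5 under the LP1 label, with a median of -0.41. SDC1, the surface proteoglycan CD138 that defines plasma cells, stood at 13200, 14300 and 14300 CPM under the H929 label and at 1240, 1290 and 1200 CPM under the LP1 label. XBP1, which drives the secretory program, stood at 285, 301 and 294 CPM against 1690, 1650 and 1510 CPM. ITGB7, an integrin subunit for homing, stood at 212, 235 and 229 CPM against 4610, 4990 and 5070 CPM. In these genes the groups did not overlap, beside 16 of the 17 tested and 72.1% of all genes tested. SDC1 was 11.1-fold higher under the H929 label while ITGB7 was 21.9-fold and XBP1 5.57-fold higher under the LP1 label. TNFRSF17, the receptor BCMA, and PRDM1, the master regulator of the plasma cell state, were 3.49-fold and 2.94-fold higher under the LP1 label. FCRL5 and TNFRSF13B, receptors of the B lineage, were 60-fold and 76.1-fold higher under the H929 label, and CD38 3.71-fold. IRF4, on which myeloma cells depend, was high in both, at 1590 to 1660 CPM and 2110 to 2140 CPM.

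Most B cell genes were low in both groups, as is known of plasma cells. CD79B, however, stood at means of 41.0 CPM under the H929 label and 28.4 CPM under the LP1 label. The list summed to 117, 114 and 121 CPM under the H929 label and 85.4, 92.2 and 88.2 CPM under the LP1 label, with BACH2 the most abundant in both, at a log2 fold change of 0.05. BACH2 passed the test only with library size as the sole scaling, at an adjusted p of 0.00292 in a range of 0.00292 to 0.986 over 14 alternatives. CD22 was at 0 under the H929 label and MS4A1, which encodes CD20, at 0 under the LP1 label. PAX5, which holds B cells in their state, stood at 0.853, 1.09 and 1.02 CPM under the LP1 label and at 0, 0.0374 and 0 CPM under the H929 label. Of 12 members tested, 3 were higher under the H929 label and 4, PAX5 among them, under the LP1 label, with a median of -0.05. The 3 were SPIB, at means of 11.1 against 0.25 CPM, BLNK, at 3.38 against 0.0606 CPM, and CR2, at 2.54 against 0.317 CPM. They were 45.2-fold, 55.1-fold and 7.68-fold higher under the H929 label. With library size as the only scaling, 3 and 2 were called and the median turned to 0.10, and with DESeq2 3 were called under each label.

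Markers of other cell types were mostly low, with some single genes at a high level. The T and NK cell list summed to 220, 231 and 229 CPM under the H929 label and 44.6, 62.6 and 66.9 CPM under the LP1 label, with CD4 and TRBC2 the most abundant. CD4, a coreceptor of helper T cells, stood at 182, 193 and 194 CPM against 0.0185, 0 and 0.119 CPM, and at a mean of 307 CPM in AMO1 gN1E. CD8A stood at 2.64, 2.69 and 2.71 CPM under the H929 label and at 0 under the LP1 label, at least 122-fold higher. The defining markers CD3D and CD2 were at 0 in the 3 libraries labelled H929, but CD3E stood at 7.96, 8.49 and 8.31 CPM there and at 10.1, 12.1 and 13.7 CPM under the LP1 label. TRAC stood at 2.26, 1.66 and 2.35 CPM against 0.315, 0.875 and 0.596 CPM, and CD3G at 0.403, 0.412 and 0.306 CPM against 0.0371, 0 and 0 CPM. TRBC2 stood at 23.9, 24.9 and 21 CPM against 31.2, 46.0 and 48.3 CPM, a call that was lost without any of 5 single libraries, at adjusted p of 0.0525 to 0.0695 in a range of 2.62e-14 to 0.0695 over 14 alternatives. Of 9 tested, 4 were higher under the H929 label and 3 under the LP1 label, with a median of -0.55. Higher under the LP1 label were TRBC1 (27.1-fold), NKG7 (26-fold) and CD7 (8.79-fold). The part of such cells in the result was not tested.

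The myeloid list summed to 0.508, 0.561 and 0.515 CPM under the H929 label, led by CD14, and to 4.58, 6.73 and 7.17 CPM under the LP1 label, led by CSF1R. FCGR3A and ELANE were at 0 in all 6 libraries. Of 4 tested, 0 were higher under the H929 label and 3 under the LP1 label (median -4.29, or -3.56 with genes at 0 set to their bound). Among the 3, CSF1R and S100A9 had 7 and 0 reads in all under the H929 label. They passed the filter only through the LP1 label, so their direction and the median follow in part from the filter. S100A9 and CD33 were also near the floor, at means of 0.67 and 0.639 CPM under the LP1 label. The erythroid, endothelial and stromal list summed to 31.3, 29.1 and 18.1 CPM under the H929 label, led by HBA2, and to 316, 321 and 324 CPM under the LP1 label, led by PECAM1. PECAM1, an adhesion molecule of endothelium that plasma cells also carry, stood at 301, 315 and 313 CPM against 6.95, 6.9 and 7.04 CPM and was the 1 called member of 5 tested. The defining marker COL3A1 was at 0 in all 6, and the median of -0.02 turned to 0.14 with library size as the only scaling. Their part in the result was not tested.

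MHC class II, which presents peptides to helper T cells, was the group of genes with the largest shift after the heavy chains. Of 14 members tested, 13 were called higher under the H929 label and 0 under the LP1 label, with a median of 8.35. The groups did not overlap at 14 of 14, beside 72.1% of all genes tested. CD74, the invariant chain, stood at 1670, 1540 and 1520 CPM under the H929 label and at 0.426, 1.14 and 0.667 CPM under the LP1 label. HLA-DRA stood at 406, 446 and 422 CPM against 0.76, 0.996 and 0.477 CPM. CIITA, the coactivator that switches class II genes on, stood at 181, 186 and 193 CPM against 5.58, 5.34 and 5.67 CPM, and was itself 33.4-fold higher. Each of these was low in the libraries labelled LP1 and high in AMO1 gN1E, at means of 2220, 655 and 256 CPM. HLA-DOA was at 0 under the LP1 label and at 36.5, 38.5 and 36.9 CPM under the H929 label, at least 1700-fold higher. HLA-DOB, the 1 member not called, stood at 4.78, 5.24 and 4.64 CPM against 4.26, 3.5 and 4.58 CPM, with an adjusted p of 0.111 by the quasi-likelihood test of edgeR (Benjamini-Hochberg). It passed with library size as the only scaling, at 0.0123 in a range of 0.0123 to 0.423 over 14 alternatives. HLA genes vary between people and resemble each other, so reads of alleles unlike the reference may be lost and these levels are uncertain.

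Promoters of class II genes are known for a Y box, which contains CCAAT. Because these genes moved together, the promoters of CD74 (minus strand, chr5:150412861-150413160) and HLA-DQA1 (plus strand, chr6:32637156-32637455) are shown from RefSeq on GRCh38.p14, 300 bases each, with capitals at CCAAT or, for the other strand, ATTGG. They are reference sequences and not those of the lines.
CD74: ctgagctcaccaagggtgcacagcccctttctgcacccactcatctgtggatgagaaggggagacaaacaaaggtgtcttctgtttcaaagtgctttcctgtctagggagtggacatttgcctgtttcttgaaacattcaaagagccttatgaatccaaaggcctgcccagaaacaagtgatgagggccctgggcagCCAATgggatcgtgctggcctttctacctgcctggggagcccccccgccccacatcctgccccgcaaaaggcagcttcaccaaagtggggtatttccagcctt
HLA-DQA1: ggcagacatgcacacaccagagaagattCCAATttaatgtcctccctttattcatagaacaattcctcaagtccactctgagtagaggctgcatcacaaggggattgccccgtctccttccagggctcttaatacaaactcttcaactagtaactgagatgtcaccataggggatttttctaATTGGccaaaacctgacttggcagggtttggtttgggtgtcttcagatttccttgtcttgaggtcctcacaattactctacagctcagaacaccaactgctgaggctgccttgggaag
CD74 held 1 match and HLA-DQA1 held 2. Of 12 class II members with a promoter in the RefSeq table, 11 held a match, HLA-DOB among them with 2 and HLA-DPA1 with 0, beside 12155 of all 35116 promoters, or 34.6%. A match describes these letters only.

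MHC class I differed far less. Of 13 genes tested, 3 were called higher under the H929 label and 0 under the LP1 label, with a median of 0.83, and 6 were called higher, with a median of 0.98, with library size as the only scaling. HLA-B, which showed the largest change of the classical genes, stood at 725, 768 and 751 CPM under the H929 label and at 136, 150 and 145 CPM under the LP1 label. B2M, the shared light chain of class I, stood at 1130, 1190 and 1170 CPM against 646, 640 and 617 CPM. TAP1, a subunit of the peptide transporter, was 2.23-fold higher under the H929 label. HLA-C, by contrast, differed by 1.2-fold.

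Interferon-stimulated genes moved mostly toward the LP1 label, with exceptions. Of 30 tested, 5 were called higher under the H929 label and 15 under the LP1 label, with a median of -1.10. MX1, an antiviral GTPase, stood at 57.9, 65.2 and 60 CPM under the LP1 label and at 0.385, 0.636 and 0.37 CPM under the H929 label. MX2 stood at 21.7, 23.3 and 24.0 CPM against 0.07, 0.131 and 0.0322 CPM. The groups stood 134-fold and 298-fold apart at these 2 genes. SAMD9, a growth-restraining antiviral factor, went the other way, at 232, 221 and 234 CPM under the H929 label and 21.3, 26.6 and 27.3 CPM under the LP1 label, and its neighbour SAMD9L was 11.9-fold higher under the H929 label. IRF7, a driver of interferon genes, was 5.67-fold higher under the LP1 label, and ISG15 2.35-fold.

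NF-kB genes leaned toward the H929 label. Of 22 tested, 10 were called higher under the H929 label and 2 under the LP1 label, with a median of 0.52. BIRC3, an inhibitor of apoptosis that NF-kB induces, stood at 204, 206 and 213 CPM under the H929 label and at 1.76, 1.94 and 2.19 CPM under the LP1 label. TNFAIP3, the feedback brake A20, stood at 294, 305 and 306 CPM against 22.9, 24.2 and 24.4 CPM. MAP3K14, the kinase NIK of the noncanonical arm, stood at 78.8, 77.5 and 81.3 CPM against 18.8, 18 and 19.1 CPM. The kinase was 4.2-fold higher, and the subunits NFKB2, RELB and NFKB1 were 2.71-fold, 4.56-fold and 2.33-fold higher, as was the inhibitor NFKBIE, by 3.47-fold. The subunits RELA and REL were not called at 2-fold. BIRC2, the neighbour of BIRC3 on chromosome 11, was 2.43-fold higher under the LP1 label. TRAF3, which holds NIK down, was 2.44-fold higher under the H929 label. Among 21 tumour suppressors often lost in myeloma, 5 were higher under the H929 label and 3 under the LP1 label, with a median of 0.02. That is 38.1% of them, near the 36.3% of all genes tested. DIS3 on chromosome 13 was 2.67-fold higher under the H929 label and CDKN2C, a brake on cyclin D kinases, 2.30-fold higher under the LP1 label.

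Feedback genes of FGFR and MAPK signalling were mixed. Of 22 tested, 3 were called higher under the H929 label and 7 under the LP1 label, and 12 were not called at 2-fold, with a median of -0.36. The share called was 45.5%, beside 36.3% of all genes tested. In the SCR libraries 5 and 7 were called. DUSP6, a phosphatase that ERK induces, stood at 115, 117 and 124 CPM under the LP1 label and at 23.1, 24.3 and 23.8 CPM under the H929 label. FOSL1, a subunit of AP-1, stood at 9.51, 9.91 and 10.2 CPM against 0.035, 0 and 0.0966 CPM. IL17RD, which restrains FGF signals, stood at 4.6, 6.63 and 5.7 CPM against 0.158, 0.131 and 0.177 CPM. All 3 were higher in each library labelled LP1 than in any labelled H929. The groups did not overlap at 21 of the 22 tested, beside 72.1% of all genes tested. FGF2, a ligand, was 13.9-fold higher under the H929 label and FGFR1 2.6-fold.

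The BCL2 family governs death by way of mitochondria. Of 15 tested, 5 were higher under the H929 label and 3 under the LP1 label, with a median of 0.20. BCL2 stood at 279, 272 and 304 CPM under the H929 label and at 76.4, 84.1 and 86.0 CPM under the LP1 label. PMAIP1, which encodes the killer protein NOXA, stood at 28.7, 29.8 and 27.9 CPM against 2.58, 2.21 and 2.57 CPM. BMF, a killer protein too, stood at 49.3, 51.7 and 55.3 CPM under the LP1 label and at 13.6, 12.9 and 15.7 CPM under the H929 label. The groups did not overlap at any of the 3, beside 14 of the 15 tested and 72.1% of all genes tested. MCL1, on which most myeloma cells depend, differed by 1.14-fold.

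Surface and homing genes parted the groups in both directions. Of 28 tested, 6 were called higher under the H929 label and 12 under the LP1 label, with a median of -0.66. CXCR4, which homes cells to marrow, stood at 124, 141 and 133 CPM under the H929 label and at 0.723, 0.68 and 0.596 CPM under the LP1 label. CCR1, a receptor for inflammatory chemokines, stood at a mean of 1.61 CPM against 400 CPM. S1PR1, which guides exit from tissue, stood at 29.9, 30.0 and 30.2 CPM against 0.0185, 0 and 0.143 CPM. The homing receptors were thus divided, with CXCR4 and S1PR1 under the H929 label and CCR1 under the LP1 label. CD44, ITGAL and NCAM1, adhesion molecules, were 14-fold, 12.7-fold and 6.28-fold higher under the LP1 label. HGF, a growth factor, stood at 27.3, 28.8 and 28.1 CPM under the H929 label and at 1.06, 1.38 and 1.12 CPM under the LP1 label, while AMO1 gN1E had 0.0313 CPM on average. HGF, like MYCN and MAF, thus stood apart between the H929 label and AMO1.

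Cancer testis genes, silent in most normal tissues, differed by member. Of 17 tested, 6 were called higher under the H929 label and 7 under the LP1 label, with a median of 0.08. MAGEA4 stood at 218, 229 and 208 CPM under the LP1 label and at 0.0525, 0 and 0 CPM under the H929 label. SSX1 stood at 109, 131 and 122 CPM against 0, 0.0187 and 0.0161 CPM, and PAGE5, at 33.4, 34.5 and 29.1 CPM, was at 0 under the H929 label and at least 1860-fold higher. MAGEC1 stood at 263, 263 and 257 CPM against 2.31, 2.56 and 2.59 CPM. In the other direction, MAGEA10 stood at 54.2, 59.9 and 54.3 CPM under the H929 label and at 0.111, 0.0486 and 0.0715 CPM under the LP1 label. CTAG2 and PRAME were 324-fold and 90.4-fold higher under the H929 label. At each of these genes AMO1 gN1E stood with the H929 label. MAGEA and CTAG genes have close copies, so counts of single members are uncertain.

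Genes that some people lack by deletion can mark a line as well. Of 8 tested, 4 were called higher under the H929 label and 1 under the LP1 label, with a median of 0.99. GSTM1, a detoxifying enzyme, stood at 5.79, 6.01 and 5.02 CPM under the H929 label and at 0.0927, 0.0486 and 0.0238 CPM under the LP1 label, with an AMO1 gN1E mean of 6.22 CPM. UGT2B17, which conjugates steroids, stood at 0.426, 0.656 and 0.763 CPM under the LP1 label and at 0 under the H929 label and in AMO1 gN1E, at least 35.4-fold higher. GSTM1 and UGT2B17 are thus opposite in the groups, and genomic copies were not measured.

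Paraspeckle proteins differed little. Of 12 members of the NEAT1 list, all tested, 1 was called at 2-fold, HNRNPH3, at 111, 108 and 87.1 CPM under the H929 label and 43.9, 49.1 and 46.5 CPM under the LP1 label. The median was -0.14, and 0.01 with library size as the only scaling. The core proteins SFPQ and NONO differed by 1.13-fold and 1.03-fold, NONO without a call. Of the 40 targets that the study named for NEAT1, 6 were called higher under the H929 label and 11 under the LP1 label. That is 42.5% of them, near the 36.3% of all genes tested. Their median was -0.11 and turned to 0.04 with library size as the only scaling. The study chose these targets in AMO1 cells, not on the 6 libraries compared here, and then followed them in the other lines. NSD2, described with the oncogenes, is on that list, as are MYLK, a kinase of smooth muscle myosin that was 4.05-fold higher under the LP1 label, and APBB1IP, an adaptor for integrin signals that was 19.2-fold higher under the H929 label.

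The differences were also uneven along the chromosomes. Over 13369 genes whose mean log2 CPM reached 1, the median log2 fold change was -0.04. Chromosome 13 stood out with a median of 1.18 over 226 genes, 138 of them called higher under the H929 label and 14 under the LP1 label, and with 1.21 in the SCR libraries. Chromosome 7 had a median of 0.43, chromosome 5 of -0.48 and chromosome 11 of -0.32. In runs of 50 neighbouring genes, 11 of 256 had a median of at least 1 in size, 9 of them higher under the H929 label. Of these 9, some lay on chromosome 19, among them the runs from ZNF581 to ZNF274 at 1.92, from LINC00665 to PAK4 at 1.52 and from ZNF845 to ZNF580 at 1.38, with 1.94, 1.56 and 1.16 in the SCR libraries, while the median of the whole chromosome was 0.05. The lowest run lay on chromosome 5, from YTHDC2 to SHROOM1, at -1.51, and the SCR libraries gave -1.49 there. The end of chromosome X from MAGEA12 to MTCP1 had a median of -1.16. Copy number was not measured, and its part in these medians was not tested.

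**Figure D5:**
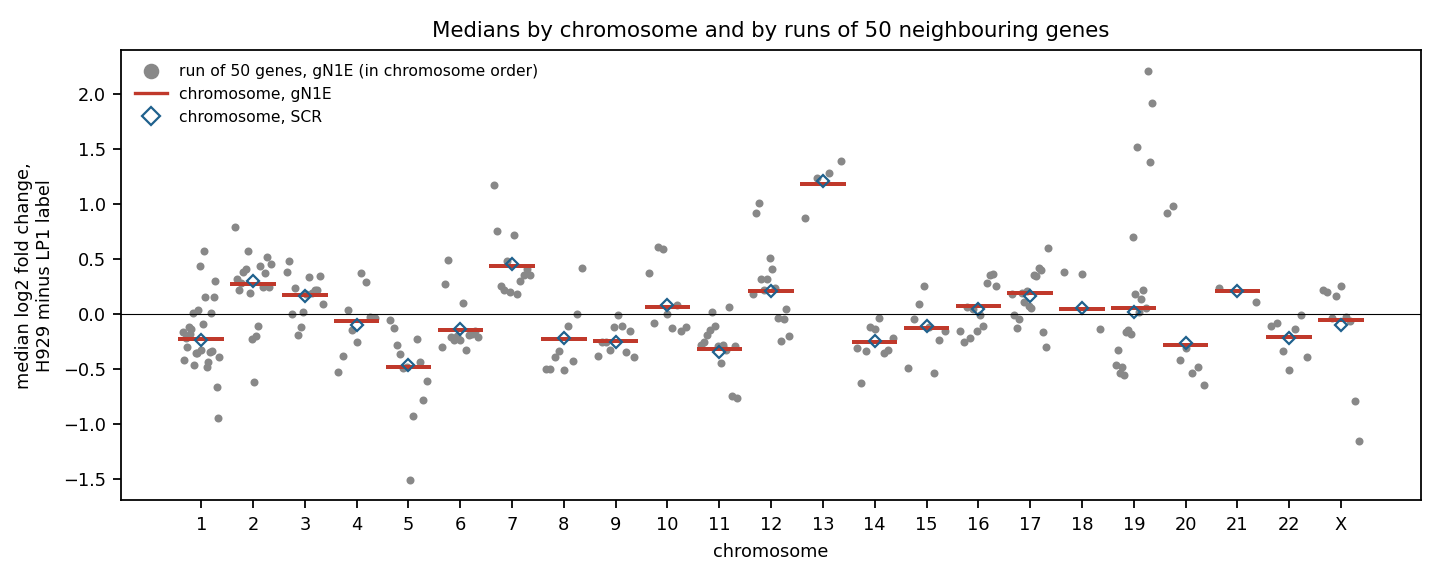
Median log2 fold change, H929 label minus LP1 label, of each chromosome in the gN1E libraries (red bars) and in the SCR libraries (diamonds), and of runs of 50 neighbouring genes in chromosome order (grey points). Chromosome 13 stands at 1.18 as a whole, and a run on chromosome 5 at -1.51.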

How the data were processed

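RNA was sequenced from 18 libraries, of which 6 are compared here. The authors aligned reads to hg38 with STAR 2.7.10a and deposited counts per gene from featureCounts 1.6.4 with GENCODE release 43, and these raw counts were used. Library totals ran from 28061606 to 69937229 counts. Groups were taken from the titles. Genes that reached 10 reads in 1 or more of the 6 libraries were tested with edgeR 4.0.16 (TMM, robust quasi-likelihood fit) in R 4.3.3, with Benjamini-Hochberg adjustment, a threshold of 0.05 and, for lists, at least 2-fold. An exact permutation of 3 against 3 libraries cannot go below 0.1.

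Named genes were NEAT1, MALAT1, members of the gene lists, the leading V segments, and the 12 protein-coding genes in each direction with the highest CPM per kilobase among those at least 32-fold apart without overlap, leaving out immunoglobulin, XIST, TSIX and Y chromosome genes. The members and lists were chosen with earlier results of these data known. Calls and selections use fitted folds, and folds printed for a gene with a group at 0 use a floor of 3 counts over that group. Alternatives were DESeq2 1.42.0, limma-voom 3.58.1, other scalings and filters, a joint fit, a replicate block, an adjusted p of 0.1 with 1.5-fold and leaving out each library. Tables and figures were made with Python 3.11.15, pandas 2.3.3, Biopython 1.88 and matplotlib 3.10.9. Some results, among them 1 gene list and 2 genes with an interaction, are not reported here.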

Additional observations from a re-analysis of the deposited data

Results flagged for a closer look

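The difference between the libraries labelled H929 and LP1 was itself compared between the gapmeR labels, by an interaction term in edgeR, and 26 of 355 named genes passed at an adjusted p under 0.05, 22 with a higher value (gN1E minus SCR, log2) and 4 with a lower one. Over all genes, 280 of 25752 or 1.09% passed, 229 with a higher value and 51 with a lower one. Among the lower were BCL2L11 at -0.43, NLRC5 at -0.39 and CD38 at -0.28.

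Of the 40 targets on the list of the study, which was chosen in AMO1 cells, 15 passed, each with a higher value. The study picked them by their change with NEAT1 in AMO1, and the libraries labelled H929 stood closer to AMO1 than those labelled LP1. The direction of these values is therefore not independent of how the list was made. NEAT1 itself differed more in ratio between the gapmeR labels under the H929 label, and its part was not tested. Among the 15 were C1orf21 at 0.32, CIT at 0.32, CAMK1D at 0.34, TPX2 at 0.37, UBAP2L at 0.38, KIF13B at 0.39, SH3KBP1 at 0.40, KAT2B at 0.51, PRKCA at 0.54, EFR3B at 0.61, UNC13B at 0.66, MYLK at 0.72, SMPD3 at 0.80 and CLMN at 0.95. CLMN stood at 21.8 CPM under the H929 label and 56.8 CPM under the LP1 label in the gN1E libraries, and at 8.51 and 43.1 CPM in the SCR libraries.

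Outside that list, the genes with a higher value were HNRNPK at 0.29, ETV5 at 0.31, MYC at 0.31, CDKN1A at 0.32, SDC1 at 0.32, IGLL5 at 0.32 and NCAM1 at 0.41.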

How the results depend on the processing

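The count of 17135 called genes ran from 15630 with the replicate letter as a block to 17960 without a filter, was 12843 at an adjusted p of 0.1 with 1.5-fold, and was 16218 to 16409 without 1 library. The count of 8930 called at 2-fold ran from 7816 with 10 reads in at least 3 libraries to 9943 without a filter, was 8353 with the block, and was 8590 to 8736 without 1 library. The share higher under the H929 label stayed between 50% and 58.1% for all calls and between 51.2% and 58.4% for those at 2-fold, the highest with library size as the only scaling, which moved the median log2 fold change by 0.15. The on and off counts of 115 and 87 fell to 63 and 53 at 10 CPM and 0.1 CPM, where fewer genes can qualify, and were 82 and 69 at 5 CPM and 0.05 CPM. Deviations of libraries from their group mean had r of -0.126 for letter A and 0.061 for B between the groups. Over all pairs of libraries r ran from -0.286 to 0.25. Deviations around a mean of 3 libraries are not independent, so these values cannot decide whether libraries of one letter were paired. Of 186 genes followed, 177 were called, and 12 lost the call under an alternative, 6 of them without 1 library: NEAT1, JCHAIN, TRBC2, MDM2, CAMK1D, ETV5, HNRNPK, CCND3, FCER2, MAGEA1, RB1 and REL. Of these, 1 reversed: REL, at a log2 fold change of -0.14, stood at 0.01 with library size as the only scaling, where it was not called. Genes called only under an alternative included BACH2, HLA-DOB, HBA2, NONO, SPRY2 and SPRY4. The depth of a group allows a level of up to 0.02 CPM at a count of 0. Immunoglobulin, HLA and MAGEA counts depend on how shared reads were counted, which was not tested.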
